A study of Mus musculus with 14 samples.

Results

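Smarca4 binding in untreated 81K1 mouse embryonic stem cells (control) was compared with binding after Smarcb1 knockdown (kd), using the 2 lists of Smarca4 peaks on chromosomes 1 to 19 and X. The members were every peak of these lists, 78960 in control and 72126 after kd, together 151086 of the 352805 regions in the 10 lists of the series. The series also holds lists for Ezh2, H3K27me3, H3K27ac and H3K4me3 in the same conditions. Each condition was 1 library per antibody, so no difference had a replicate check, no test was run, and the 95% Wilson intervals cover counting error only.

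81K1 is 1 clone derived from the OG2 line, and it carries a doxycycline-inducible hairpin RNA against Smarcb1 in the Rosa26 locus. Control and kd cells therefore shared the genotype and the transgene. The kd cells received 1 µg/ml doxycycline every day for 72 h, and the control cells received none, so doxycycline and the knockdown cannot be told apart. Cells were fixed, shipped frozen and immunoprecipitated by Active Motif with an antibody to Smarca4. A peak list carries no read counts and the depth of both libraries is unknown, so a peak without a partner is a missing call and not a measured loss of binding.

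Smarca4, also called Brg1, is the ATPase of the BAF complex, which slides and evicts nucleosomes at promoters and enhancers. In embryonic stem cells it is the catalytic subunit of the esBAF form, which works beside Pou5f1, Sox2 and Nanog. Smarcb1 is a core subunit that contacts the nucleosome, and its loss leaves a complex that still holds Smarca4.

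The labelled cell type was checked at its markers. Of the 8 markers of pluripotent cells, Pou5f1 had a peak at its start site in the strongest part of both lists, at the 99.99th percentile of score in control and the 99.95th after kd. Sox2 was at the 96.2nd and the 99.8th percentile, and Sall4 at the 96.1st and the 99.8th. Klf4 was at the 95.1st and the 94.6th percentile, and Tfcp2l1 at the 96.1st and the 94.6th. Nanog was lower, at the 81.9th and the 87.8th, and Zfp42 was at the 78.5th and the 90.2nd. Esrrb had no peak within 1 kb of its start but 47 and 42 peaks over its gene region. Alb and Ins2, markers of liver and pancreas, had no peak in either list. Peaks were listed at Gata4, Pax6, Neurod1 and Cdx2, so the lists alone did not separate lineages. Smarcb1 RNA was not measured by these lists, and the gene itself held 2 control and 3 kd peaks.

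Sequences of 4 peaks are shown because the lists parted at these kinds of site, each the strongest peak of its kind outside promoters. All are from GRCm38, the build whose other name is mm10, on the plus strand. Capitals mark the 24-base word shared by peaks of a repeat in the first and second, an octamer as bound by Pou5f1 in the third, and a match to the Esrrb motif in the fourth. Their positions are chr13:25542548-25542787, chr8:26586905-26587144, chr16:29883290-29883529 and chr19:47450291-47450530.
repeat A, kd-only: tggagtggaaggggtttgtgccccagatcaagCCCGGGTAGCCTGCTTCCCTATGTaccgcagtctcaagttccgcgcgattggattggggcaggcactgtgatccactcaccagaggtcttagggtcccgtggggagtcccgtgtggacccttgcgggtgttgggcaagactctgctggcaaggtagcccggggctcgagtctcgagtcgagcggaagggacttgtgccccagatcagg
repeat B, matched: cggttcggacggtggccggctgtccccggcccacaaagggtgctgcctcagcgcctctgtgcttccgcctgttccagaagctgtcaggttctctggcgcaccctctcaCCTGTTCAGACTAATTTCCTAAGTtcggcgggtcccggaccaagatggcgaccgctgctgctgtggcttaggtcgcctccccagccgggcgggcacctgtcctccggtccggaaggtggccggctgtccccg
octamer, control-only: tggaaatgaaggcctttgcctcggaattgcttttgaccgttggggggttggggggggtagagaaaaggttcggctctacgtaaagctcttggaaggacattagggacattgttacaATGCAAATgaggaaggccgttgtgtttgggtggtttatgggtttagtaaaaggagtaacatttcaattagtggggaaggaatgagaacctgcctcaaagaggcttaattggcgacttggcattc
Esrrb, control-only: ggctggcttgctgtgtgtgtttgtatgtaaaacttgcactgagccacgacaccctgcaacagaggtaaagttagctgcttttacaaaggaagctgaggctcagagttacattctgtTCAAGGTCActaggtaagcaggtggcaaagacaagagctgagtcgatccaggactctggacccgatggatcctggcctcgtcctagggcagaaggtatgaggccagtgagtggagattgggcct

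The repeat A peak was intergenic and had a score of 260, the 92.4th percentile of the kd list, with no control peak. The repeat B peak was intergenic and had a score of 560 after kd, the 99.5th percentile, where the control peak had a score of 78, the 59.0th percentile of its list. The octamer lay in an intergenic control-only peak 180 kb from Hes1, a repressor downstream of Notch, with a score of 269. The Esrrb match lay in a control-only peak with a score of 423 in an intron of Sh3pxd2a, a scaffold protein of podosomes. The octamer and the Esrrb match shown both lay outside the middle 300 bp of their peaks, the part used for the motif shares below.

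Of the control peaks, 34674 had no kd peak at a 1 bp overlap, which was 43.9% of the list (43.6 to 44.3%). Of the kd peaks, 25621 had no control peak, 35.5% of the list (35.2 to 35.9%). Most unmatched peaks were weak. The score, the authors' MACS2 value in the fifth column, was ranked only within its own list, since its scale was not known to be shared. In the weakest 10% of each list, 70.3% of control peaks and 60.1% of kd peaks were unmatched. In the strongest 10%, these shares were 1.32% and 1.91%, which was 104 control-only and 138 kd-only peaks.

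Unmatched peaks often lay near a peak of the other list. The median gap was 2296 bp for control-only and 2805 bp for kd-only peaks, and 22.7% and 24.9% lay within 500 bp. More than 10000 bp separated 27.5% of control-only and 34.0% of kd-only peaks from the other list.

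**Figure D1:**
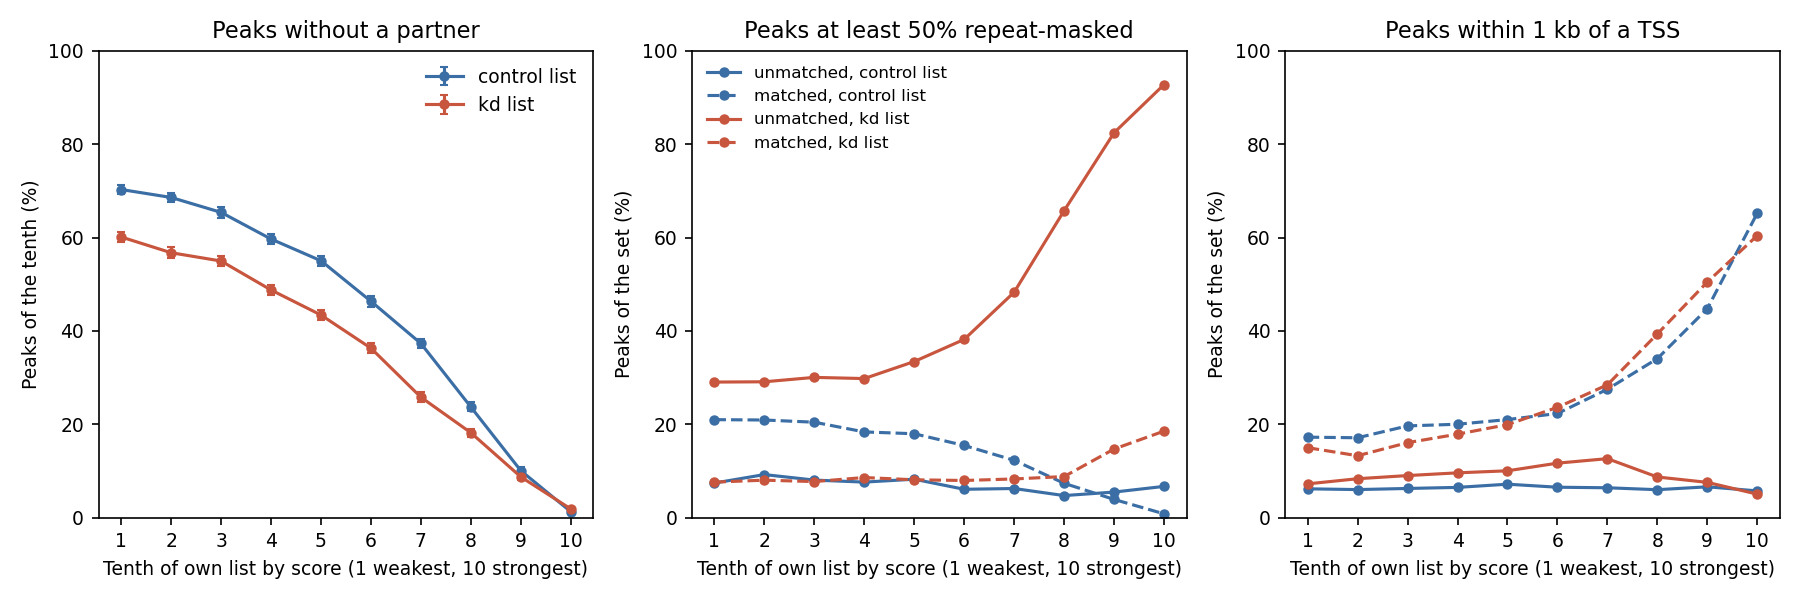
Smarca4 peaks in steps of 10% of their own list (x axis, 1 weakest, 10 strongest): percent without a partner with 95% Wilson intervals (left), percent at least 50% repeat-masked (middle) and percent within 1 kb of a protein-coding TSS (right). In the strongest 10%, 92.8% of the 138 kd-only peaks were repeat-masked, against 6.73% of the 104 control-only peaks.

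The place of unmatched peaks differed between the lists. Control-only peaks lay mainly in introns, 50.6% (50.1 to 51.1%), with 32.2% between genes and 6.41% within 1 kb of the transcription start site (TSS) of a protein-coding gene. Kd-only peaks lay mainly between genes, 45.9% (45.3 to 46.5%), with 33.7% in introns and 9.29% near a TSS. Matched peaks lay near a TSS far more often, at 34.6% in control and 33.1% after kd. Over all peaks the TSS share was 22.2% in control and 24.7% after kd.

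Repeats set the strong unmatched peaks apart. Peaks with at least 50% repeat-masked bases made up 7.59% of control-only (7.32 to 7.87%) and 35.7% of kd-only peaks (35.2 to 36.3%). The repeat share of control-only peaks stayed between 4.76% and 9.26% in every step of 10% by rank. That of kd-only peaks was 29.1% in the weakest 10% and 92.8% in the strongest 10%. Within the strongest 10%, kd-only peaks also had more GC, with a median of 60.8%, than control-only peaks, at 51.9%.

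Histone islands of the same condition went with these places. Of the kd-only peaks, 34.7% lay in a kd H3K4me3 island, a mark of active promoters, and 37.1% in a kd H3K27ac island, a mark of active promoters and enhancers. Of the control-only peaks, 11.7% and 13.2% lay in those islands of control. Matched peaks lay in H3K4me3 and H3K27ac islands more often, at 58.9% and 42.6% after kd and 53.1% and 31.0% in control. H3K27me3, the mark laid down by the Ezh2-containing PRC2, covered 32.0% of control-only peaks in control and 14.1% of kd-only peaks after kd. Among matched peaks the H3K27me3 shares were 36.6% in control and 30.2% after kd. Part of these gaps lay between the island lists. In control H3K27me3 islands lay 32.0% of control-only and 24.3% of kd-only peaks, and in kd H3K27me3 islands 24.4% and 14.1%. The places of kd-only peaks were in H3K4me3 islands in 34.1% already in control, and in H3K27ac islands in 28.1%.

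The most common 24-base word in repeat-masked kd-only peaks, called repeat A, was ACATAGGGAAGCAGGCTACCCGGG or its complement. It was found in 1923 kd-only peaks, 7.51% of them, and in 4 control-only peaks. The most common word in matched repeat-masked kd peaks, called repeat B, was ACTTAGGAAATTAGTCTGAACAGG or its complement. Both words were chosen from the peaks, so their presence there is a description. No comparison with a repeat library was made, and the repeats are called by their word alone.

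Both words stood in tandem in the genome. Repeat A had 6811 exact copies on chromosomes 1 to 19 and X, with neighbours at a median spacing of 208 bp, and repeat B had 6833 copies at 212 bp. Copies within 1 kb of each other formed 2725 loci of repeat A and 3212 loci of repeat B. The loci lay at a median of 173 kb and 154 kb from a TSS. Of the kd peaks with these words, 72.4% and 69.2% were intergenic.

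Of the repeat A loci, 141 overlapped a control Smarca4 peak, 5.17% (4.40 to 6.07%), and 1916 a kd peak, 70.3% (68.6 to 72.0%). A kd peak alone was listed at 1780 loci, a control peak alone at 5 and both at 136. Repeat A was chosen from kd-only peaks, so a lower control share at its loci was partly set by that choice. Of the repeat B loci, 1721 overlapped a control peak, 53.6%, and 2701 a kd peak, 84.1%, with 985 after kd alone and 5 in control alone. With peaks of a score of at least 50 in both lists, repeat A loci were in a peak in 1.39% in control and 54.6% after kd.

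The same loci already carried active marks in control. H3K4me3 islands held 90.3% of repeat A loci in control and 99.4% after kd, and H3K27ac islands held 82.4% and 93.7%. For repeat B the H3K4me3 shares were 92.1% and 97.6%. H3K27me3 islands held 0.881% of repeat A loci in control and 0.220% after kd, and of the Ezh2 lists only the kd list overlapped a repeat A locus, at 1 locus. By the methods, only uniquely mapped reads were kept, so these calls rest on reads that differ between copies.

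**Figure D2:**
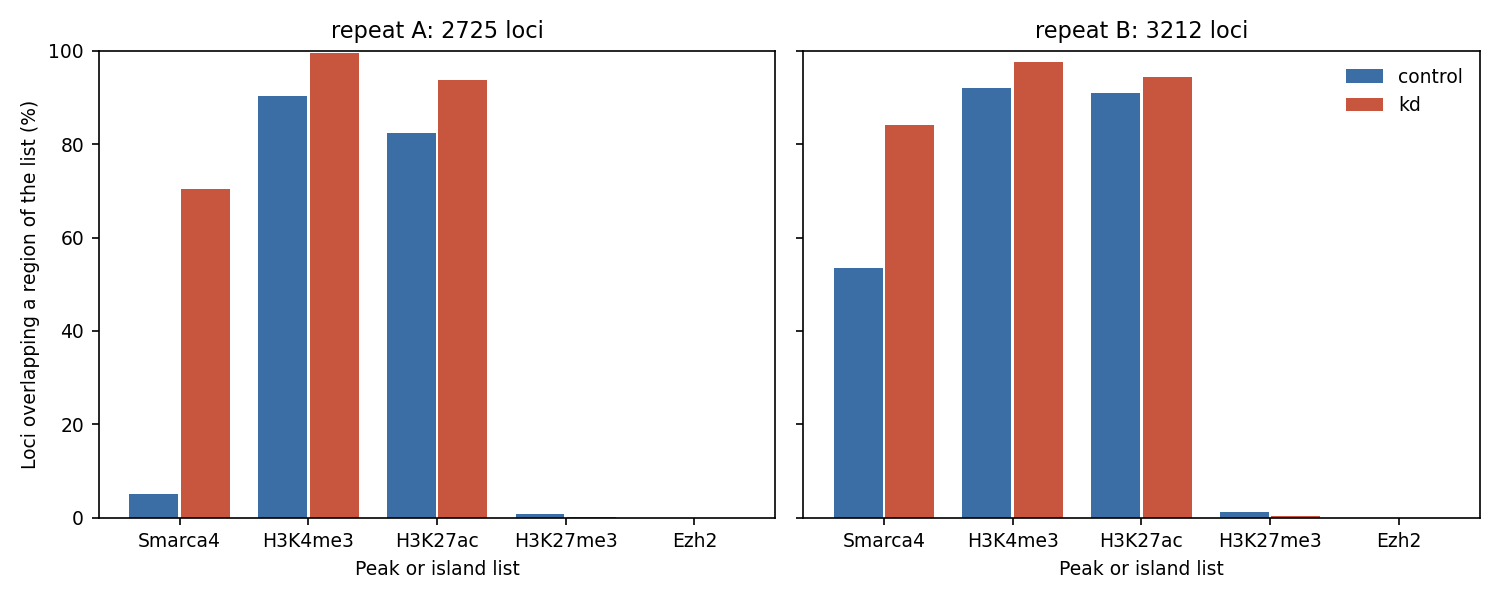
Percent of the genomic loci of repeat A (left, 2725 loci) and repeat B (right, 3212 loci) that overlapped a region of each list in control (blue) and kd (red), 1 library each. Smarca4 peaks held 5.17% of repeat A loci in control and 70.3% after kd, while H3K4me3 islands held over 90% in both. The word of repeat A was chosen from kd-only peaks, which partly sets its low Smarca4 share in control.

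At repeat B the rank moved within matched peaks. In 1629 one-to-one pairs with this word in the kd peak, the median percentile was 46.9 in control and 90.4 after kd. Of these pairs, 1603 (98.4%) ranked higher after kd. Their median width went from 452 to 802 bp. The word was chosen from matched kd peaks and had to lie in the kd peak. These differences were therefore partly selected for, and by how much was not tested. In the other 29817 pairs the median percentile was 67.0 in control and 62.6 after kd.

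Chromosome X stood apart from the autosomes. It held 1566 control and 2149 kd peaks, a log2 ratio of 0.46, whereas the ratio on each autosome lay between -0.24 on chromosome 8 and -0.00 on chromosome 7. Of the kd peaks on X, 46.7% were repeat-masked, and 23.8% held repeat A or B. Without peaks that held either word the log2 ratio on X was 0.27, and without all repeat-masked peaks X had 1146 control and 1145 kd peaks. Without repeat-masked peaks the autosomes lay between -0.43 and -0.16.

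The 31446 one-to-one pairs, in which a control and a kd peak overlapped each other and nothing else, were compared for width and rank. The median log2 ratio of kd to control width was -0.09 (quartiles -0.56 and 0.32), with medians of 572 bp in control and 527 bp after kd. After kd, 55.9% were narrower and 43.9% wider. The midpoints lay a median of 86 bp apart. The kd peak lay wholly inside the control peak in 28.1% and the control peak inside the kd peak in 23.5%.

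Ranks were related but loosely. Spearman's rho of the percentiles was 0.51 over the 31446 pairs, which share the genome and are not independent. Rank moved by more than 30 percentile points in 28.8% of pairs, up in 4385 and down in 4678. Of those that ranked higher after kd, 41.6% were repeat-masked, against 4.62% of those that ranked lower. The median width ratio was 0.53 in repeat-masked pairs and -0.15 in the others, both on the log2 scale.

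**Figure D3:**
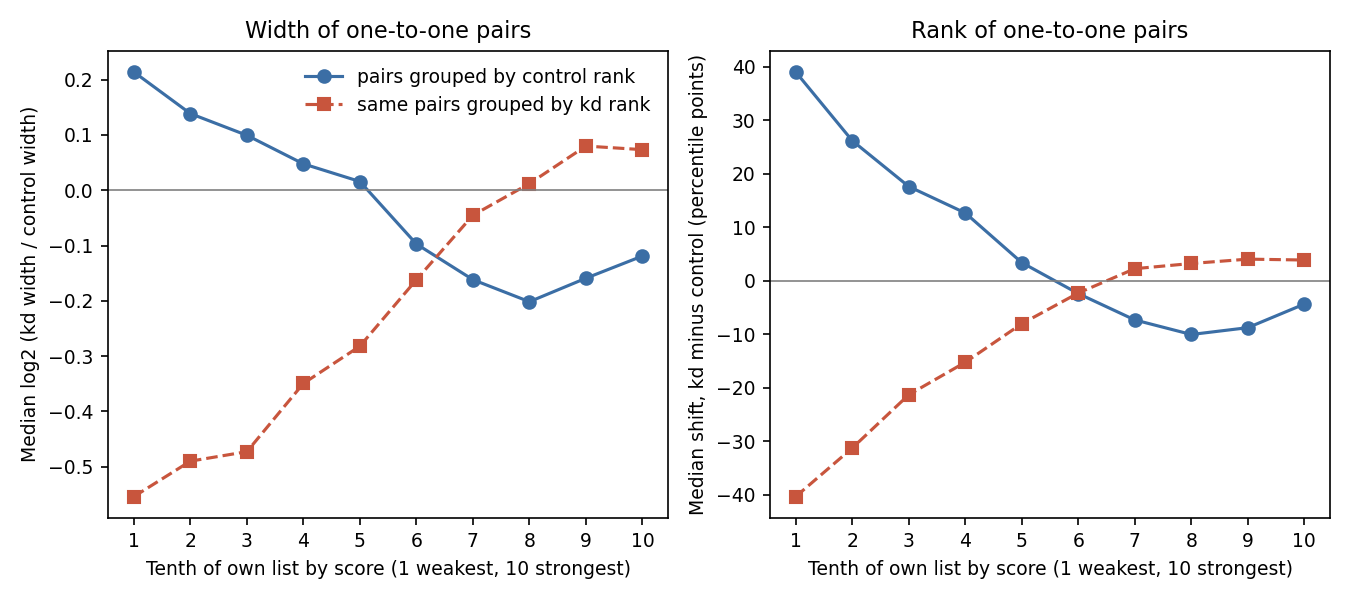
Median log2 width ratio (left) and median percentile shift (right), kd against control, of the 31446 one-to-one pairs in steps of 10% by score (x axis), grouped by control rank (blue circles) or by kd rank (red squares). Weak control peaks were wider after kd and weak kd peaks were narrower than in control, so the direction in weak pairs depended on which list ranked them.

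The largest moves down in rank were in peaks under 50% repeat-masked. The peak at the TSS of Kl, a co-receptor of fibroblast growth factor 23, went from a score of 423 and the 98.5th percentile to 18 and the 1.29th. The peak was 1242 bp wide in control and 675 bp wide in kd cells. A peak 6338 bp from Dlx3, a homeobox gene, went from 244 to 17, and peaks near She, Rhou and Paqr3 from 318 to 23, 229 to 16 and 225 to 15. The largest moves up were all in repeat-masked peaks, near Cntnap5b, Dcaf12l2, Rhox9, Catsperb and Ccser1, from scores of 16 to 20 to scores of 336 to 387. Outside repeats, in a choice made after the values were seen, the largest moves up included peaks at the TSS of Nelfcd, a subunit of the NELF pausing complex, from 20 to 226, and of Zcchc10, from 18 to 204.

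The order at the very top of the lists was shared in part. Of the 100 strongest control peaks, 30 overlapped 1 of the 100 strongest kd peaks, and of the 5000 strongest, 51.3% did. The 5000 strongest peaks were 0.56% repeat-masked in control and 18.5% after kd, and 68.9% and 61.3% lay near a TSS.

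Broad control peaks were broken up after kd more often than the reverse. Of 44286 matched control peaks, 5721 overlapped at least 2 kd peaks, 12.9% (12.6 to 13.2%). Of 46505 matched kd peaks, 4135 overlapped at least 2 control peaks, 8.89% (8.64 to 9.15%). Split control peaks were broad, with a median of 1317 bp against 551 bp for control peaks with 1 partner. The pieces lay a median of 166 bp apart and together covered a median of 71.5% of the control peak. Of control peaks of 2000 bp or more, 59.0% were split, and of kd peaks of this width 49.7% spanned several control peaks.

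Of the control peaks, 9 had 6 pieces, the highest number, and the 3 broadest of them are named. One lay 2838 bp from Hs6st1, a heparan sulphate sulphotransferase, at chr1:36059051-36065562, with pieces of 667 to 2054 bp. The others lay in an intron of Reep3 and at the TSS of Crip2. The kd peaks that spanned most control peaks lay near Gtf2i and Cbfa2t2, with 6 each, and near Tmem220, with 5. With peaks closer than 500 bp merged first, the split share was 7.16% and the merge share 3.73%.

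Peaks per gene were counted over 21728 protein-coding gene regions, each with its gene body and 1 kb of upstream sequence. Fewer peaks were found after kd in 5638 regions, 25.9%, and more in 4815, 22.2%, while 11275 had equal numbers. A peak was found in control alone in 537 regions and after kd alone in 842. At least 10 fewer peaks were found in 244 regions and at least 10 more in 18. The sign of this balance depended on the counting. With both lists at equal length 5438 regions had more and 4953 fewer, and within 1 kb of the TSS 3204 had more and 2898 fewer.

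The balance differed with gene length, though not in 1 direction. Regions of genes under 10 kb had fewer kd peaks in 13.8% and more in 17.6%. For genes of 100 to 300 kb these shares were 46.9% and 24.9%, and for genes of 300 kb or more 42.6% and 38.5%. Of these longest genes 77.7% held a kd-only and 68.9% a control-only peak. The summed peaks of genes of 100 to 300 kb went from 12469 to 8907, and those of the short genes from 8080 to 8407.

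The regions with the largest drops in peak number were mostly long. Gm20388, a gene model of 4435 kb that spans its neighbours, went from 648 to 554 peaks. Fgfr2, a fibroblast growth factor receptor annotated over 2961 kb, went from 176 to 113. This count covers every peak in that span, and which of them belong to Fgfr2 was not tested. Gse1, a gene inside the Gm20388 model, went from 168 to 125, and Msi2, an RNA-binding protein of stem cells, from 92 to 56. Ski, a repressor of TGF-beta signalling and only 68.5 kb long, went from 43 to 7, of which 37 control peaks and no kd peaks were unmatched. With a score of at least 50, Gm20388 went from 410 to 359, Fgfr2 from 113 to 64 and Gse1 from 98 to 85. At this limit Msi2 went from 57 to 35 and Ski from 19 to 5.

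The regions with the largest gains in peak number were Pcdha1 and Pcdha2, overlapping genes of clustered protocadherins, from 11 to 25 and from 11 to 24. Urm1, a ubiquitin-like modifier, went from 6 to 20 and Pigl, an enzyme of GPI anchor synthesis, from 8 to 21. Cntnap2, a neurexin-like adhesion protein, went from 8 to 21. Without repeat-masked peaks Cntnap2 went from 3 to 7, Urm1 from 6 to 15 and Pigl from 7 to 15, while Pcdha1 went from 10 to 23. With a score of at least 50, Pcdha1 and Pcdha2 each went from 8 to 13 and Urm1 from 4 to 9. At this limit Cntnap2 went from 6 to 14 and Pigl from 5 to 17.

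Among 10 gene lists, axon guidance genes had the largest difference in summed peaks. With a score of at least 50 it was that of the PRC2 genes, with a log2 ratio of -0.72 against -0.61. Of 52 axon guidance genes, 33 had fewer peaks (63.5%) and 8 more (15.4%), against 25.9% and 22.2% of all protein-coding genes. Their summed peaks went from 465 to 290. Over all protein-coding genes the sum went from 56932 to 49253. The Eph receptors, which read ephrin ligands on neighbouring cells, were among them. Ephb2 went from 38 to 9 peaks and Epha4 from 43 to 16, each with 29 control-only and 0 kd-only peaks. The netrin receptor Unc5b went from 36 to 18 and the semaphorin Sema4d from 15 to 2. Epha6 went from 2 to 8, but from 0 to 2 without repeat-masked peaks, and Sema3e from 6 to 8, with 6 in both at a score of at least 50. Among genes of at least 100 kb, 21 of 33 axon guidance genes had fewer peaks (63.6%), against 45.9% of all 2487 genes of that length.

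Cell adhesion genes went from 365 to 290 peaks, with 25 of 58 genes lower (43.1%) and 19 higher (32.8%), against 25.9% and 22.2% of all genes. Among genes of at least 100 kb, 52.8% of adhesion and 35.1% of synapse genes had fewer peaks, against the 45.9% of all genes of that length. Cdh4, a cadherin of the nervous system, went from 29 to 5 and the neural adhesion gene Ncam1 from 10 to 2. Cdh1, which encodes E-cadherin of embryonic stem cells, went from 26 to 36, with 4 control-only peaks and 1 kd-only peak, and from 17 to 20 at a score of at least 50. Synapse genes went from 347 to 319, but from 313 to 319 with lists of equal length, with 18 of 52 lower and 20 higher. Within them the kainate receptor genes Grik3 and Grik4 went from 55 to 26 and from 23 to 3, and Dlg2, a postsynaptic scaffold, from 9 to 18, but from 7 to 8 without repeat-masked peaks.

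Pluripotency genes went from 161 to 162 peaks, and from 155 to 148 without repeat-masked peaks. Of 24 genes, 8 were lower (33.3%) and 9 higher (37.5%), against 25.9% and 22.2% of all protein-coding genes. Tbx3, a T-box factor of self-renewal, went from 10 to 3 peaks and Esrrb, an orphan nuclear receptor of the same network, from 47 to 42. Fgf4 went from 9 to 14 and Zfp42, also called Rex1, from 5 to 8. Of 40 neural transcription factor genes, 12 were lower (30%) and 13 higher (32.5%). Their summed peaks went from 172 to 169, and from 162 to 169 with lists of equal length.

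Among 29 genes of BAF subunits, 11 were lower and 11 higher (37.9% each), against 25.9% and 22.2% of all protein-coding genes. Their summed peaks went from 187 to 170, but from 171 to 170 with lists of equal length. Arid1b and Arid1a, DNA-binding subunits of the canonical complex, went from 23 to 11 and from 12 to 6, and Bcl11a from 16 to 6. Smarca4 itself went from 2 to 4 and Bicral, a subunit of the non-canonical complex, which lacks Smarcb1, from 26 to 31, but from 20 to 19 at a score of at least 50. The 12 PRC2 genes went from 55 to 35, of which Jarid2 alone went from 24 to 11, and with neighbouring peaks merged the sums were 34 and 31.

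Genes of general cell functions went in both directions. Cell cycle genes went from 179 to 158 peaks, with 24 of 50 lower (48%) and 13 higher (26%). Chromatin regulators went from 377 to 349, with 28 of 60 lower (46.7%) and 18 higher (30%). Over all protein-coding genes 25.9% were lower and 22.2% higher. With lists of equal length the sums were 168 and 158 for cell cycle genes and 351 and 349 for chromatin regulators. Hdac5 went from 13 to 4 and Kmt2d, a methyltransferase of enhancers, from 3 to 9. Housekeeping and ribosomal genes went from 82 to 93, with 7 of 30 lower (23.3%) and 14 higher (46.7%). With a score of at least 50 their sums were close, at 59 and 60.

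**Figure D4:**
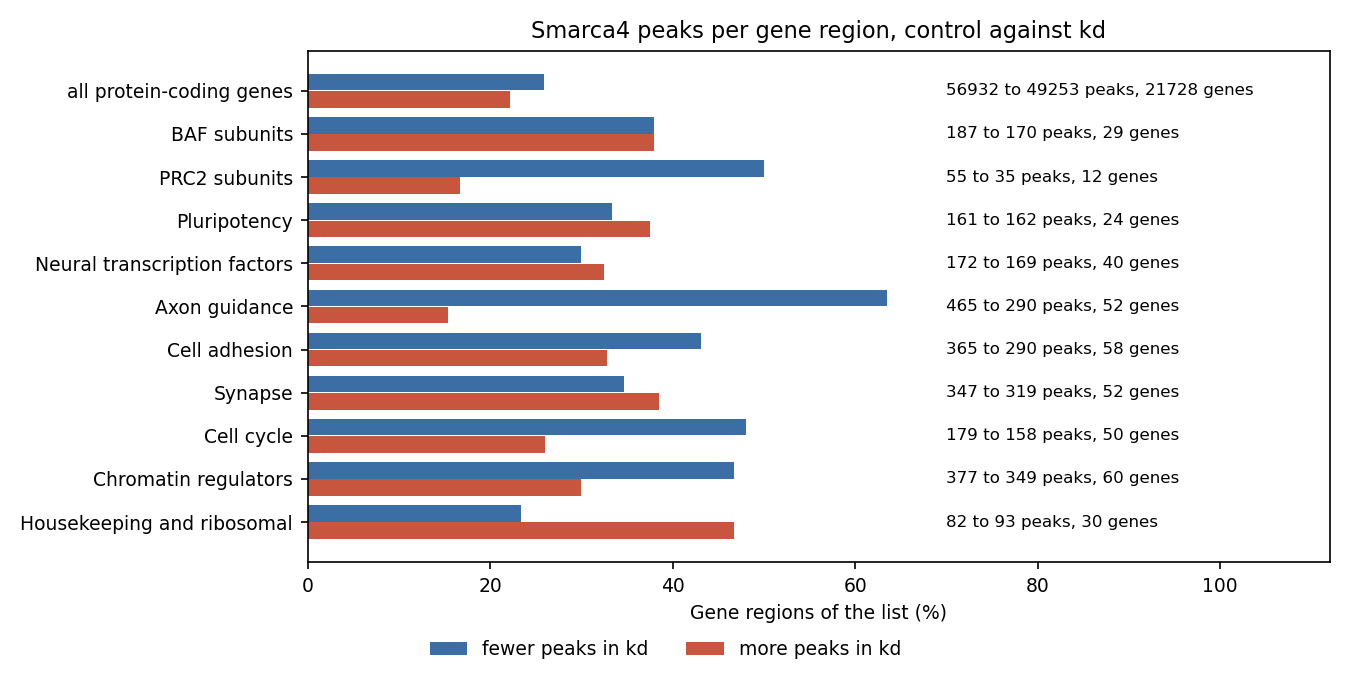
Percent of the gene regions of each list (y axis) with fewer (blue) and with more (red) Smarca4 peaks after kd than in control, with the summed control and kd peaks beside each list. Axon guidance genes had fewer peaks in 63.5% of regions, against 25.9% of all protein-coding gene regions. Among genes of at least 100 kb these shares were 63.6% and 45.9%.

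By nearest gene, control-only peaks gathered at fewer places than kd-only peaks. Genes with at least 10 unmatched peaks nearest to them numbered 699 for control-only and 217 for kd-only peaks, and held 32.4% and 11.4% of these peaks. Tle3, a co-repressor of the Groucho family, had 65 control-only peaks of 74 control peaks in all, against 11 kd peaks. Smad7, an inhibitor of TGF-beta signalling, had 62, Sulf2, an extracellular sulphatase, 58, Grik3 50 and Zfp36l1, an mRNA decay factor, 48.

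The genes nearest to most kd-only peaks were Atg7, an enzyme of autophagy, with 56, Med13l with 34, Chd2 and Klf3 with 27 each, and Pim1 with 26. At Atg7, 91.1% of the kd-only peaks were repeat-masked. At Med13l the total was 84 control and 77 kd peaks, so the number of calls there was close while their places differed.

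Unmatched peaks also stood in unbroken runs, with no matched peak and no peak of the other list between them. Runs of at least 5 held 8714 control-only peaks (25.1%) and 2490 kd-only peaks (9.72%). The longest was 40 control-only peaks over 236 kb at Sipa1l2, chr8:125327250-125563229, with scores of 23 to 164. Over the gene region of Sipa1l2, a regulator of Rap signalling, 35 control and 2 kd peaks were listed. Next came 28 peaks over 82.1 kb beside Tle3 and 24 over 98.8 kb between Itpk1 and Chga. Of the 40 peaks at Sipa1l2, 1 was repeat-masked, 2 lay in a control H3K27ac island and 1 in a control H3K27me3 island, whereas 10 of the 28 beside Tle3 lay in control H3K27me3 islands.

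The longest kd-only run was 20 peaks over 23.1 kb between Hrh1 and Atg7, of which 18 were repeat-masked and all 20 lay in H3K27me3 islands in both conditions. Runs of 13 lay around Pcdh9 and Pcdh18, spread over 1392 kb and 2556 kb of gene-poor sequence, with all 13 peaks of each repeat-masked.

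**Figure D5:**
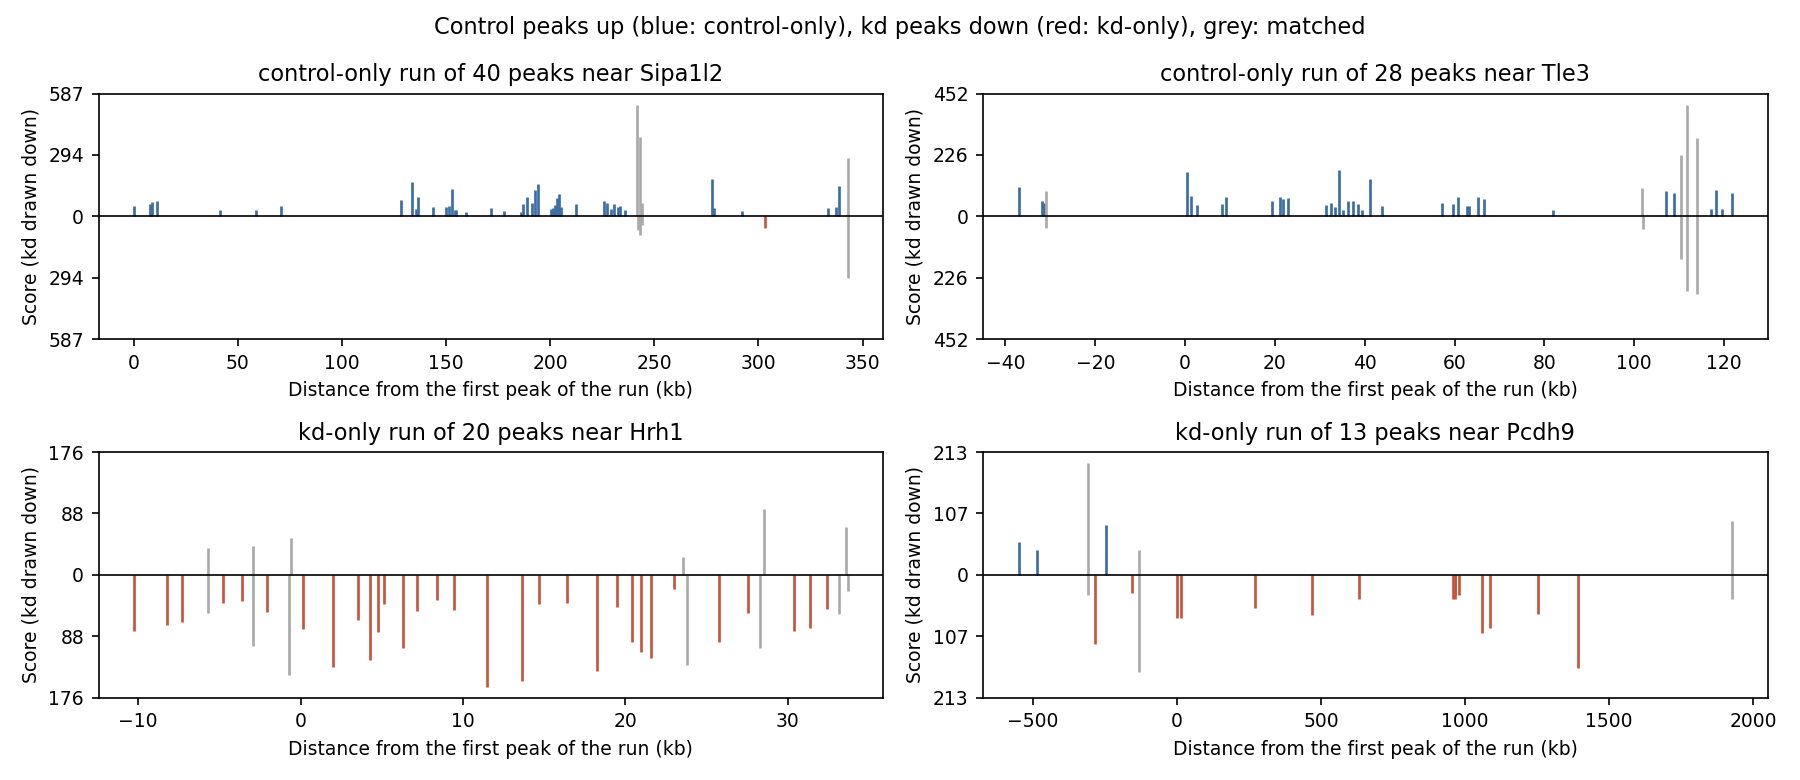
Smarca4 peaks around 2 control-only runs (top) and 2 kd-only runs (bottom): distance from the first peak of the run in kb (x axis) and score (y axis, control upwards, kd downwards; the scores are not on a shared scale). Control-only peaks are blue, kd-only peaks red and matched peaks grey. The 40 peaks of the Sipa1l2 run scored at most 164, and the strongest matched control peak beside them scored 534.

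Near promoters, 2224 control-only and 2380 kd-only peaks lay within 1 kb of a TSS. The strongest control-only ones were at Fam189a2 (score 280), the receptor gene Adgrg5 (267), Ttc7b (242), Plcxd1 (239) and the Notch receptor gene Notch4 (219). The first and second of these genes went from 5 and 2 peaks to 0. At Ttc7b and Plcxd1 a kd peak lay 171 bp and 128 bp away. The strongest kd-only ones were at Zbed6 (357), the histone gene Hist1h3i (284), Hdgfl2 (267), Bbip1 (249) and Ndufb2 (243), a subunit of respiratory complex I. Zbed6, Hist1h3i and Ndufb2 had no peak in control and 1, 2 and 1 after kd, and all 5 places lay in H3K4me3 islands in both conditions. Kd peaks near Hdgfl2 and Bbip1 lay 133 bp and 306 bp from a control peak.

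The middle 300 bp of every peak was searched for motifs in either orientation, and a match is a description and not a binding site. Among distal peaks under 50% repeat-masked, the octamer ATGCAAAT was found in 2.03% of control-only peaks (1.88 to 2.20%), 1.38% of matched control peaks (1.24 to 1.54%) and 1.07% of kd-only peaks (0.909 to 1.25%). The Esrrb motif TCAAGGTCA was found in 1.49% of control-only (1.36 to 1.63%), 1.07% of matched control and 0.876% of kd-only peaks (0.736 to 1.04%). The Sox motif CATTGTT was found in 4.45%, 3.04% and 3.21%, and the Klf motif GGGTGTGG in 5.62%, 4.50% and 3.80%. In peaks of the 30th to the 80th percentile alone, the octamer was in 2.18% of control-only, 1.47% of matched control and 1.21% of kd-only peaks. The 32619 RefSeq promoters of 300 bp held these motifs in 1.75% (octamer), 0.426% (Esrrb), 3.77% (Sox) and 3.57% (Klf), and all 151086 peaks in 1.26%, 1.01%, 2.77% and 4.29%. A higher share in distal control-only than in distal kd-only peaks was not particular to these 4 motifs, since 10 of the 15 searched had it. Among the others, the homeobox motif TAATTA was in 4.30% and 3.40%, the Tead motif GGAATG in 17.8% and 15.8% and the AP-1 motif TGANTCA in 9.27% and 8.29%. RefSeq promoters held these in 5.25%, 14.6% and 7.85%, and all peaks in 3.19%, 14.5% and 6.86%.

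At promoters the ETS motif CCGGAAGT was in 3.92% of kd-only peaks (3.19 to 4.82%) and 0.890% of control-only peaks (0.570 to 1.39%), against 3.91% of RefSeq promoters and 1.12% of all peaks. In repeat-masked peaks the YY1 motif AAGATGGC was in 17.9% of kd-only and 2.77% of control-only peaks, against 2.76% of RefSeq promoters and 5.90% of all peaks. It was more common in matched repeat-masked peaks, at 49.2% in control and 43.2% after kd. Among kd peaks with the word of repeat B it was found in 89.2% and among those with repeat A in 0.0484%.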

How the data were processed

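Peaks came from ChIP-seq, 1 library per antibody and condition, of untreated and doxycycline-treated 81K1 cells. By the methods and the processing notes, the authors trimmed reads with Trim Galore, aligned them to mm10 with Bowtie2, kept unique alignments with few mismatches with SAMtools 1.9 and called peaks in each library with MACS2. The methods name input as the background, whereas the deposited peak names carry IgG and 0.05. The deposited score in the fifth column is the MACS2 value of a peak, and it was ranked only within its own list. The deposited islands of H3K27ac, H3K27me3 and H3K4me3, called with SICER, carry a p-value, and only their positions were used. The authors' differential calls were not used here. Chromosome Y and unplaced scaffolds were left out.

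Starts were read as zero-based. Peaks were matched at 1 bp, placed on GENCODE M21 (GRCm38) and called repeat-masked at 50% lower-case bases of the reference. Python 3.11.15, numpy 2.4.6, pandas 2.3.3, pysam 0.24.0 and matplotlib 3.10.9 were used, and the matching was tested on simulated data. Depth was not given in the sources used here. Members, gene lists and the 15 motifs were chosen with earlier results of these data known. Beyond the lists, genes were named as the 5 largest in each direction (3 for splits, merges and runs), and any other choice is stated beside it. Alternatives were a score of at least 50, equal list lengths, merging within 500 bp, 50% reciprocal overlap, and peaks without repeats or without chromosomes 8 and X. Peaks per gene were also counted over all annotated genes and within 1 kb of the TSS, and the promoter share with a window of 2.5 kb.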

Additional observations from a re-analysis of the deposited data

Results flagged for a closer look

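Smarca4 peaks outside the compared chromosomes were flagged as signal in data that no comparison used. On chromosome Y, 213 peaks were listed after kd and 54 in control. On unplaced and random scaffolds, 61 peaks were listed after kd and 33 in control.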

How the results depend on the processing

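The main values were 43.9% control-only, 35.5% kd-only, 12.9% split, 8.89% merged, -0.09 for log2 width, 0.51 for rho of rank, -0.23 for the log2 ratio of gene regions with more to those with fewer peaks, and 0.15 for the log2 ratio of promoter shares. Of 47 alternative values, 14 stayed within the counting error or limit set for them, 31 moved and 2 reversed. With a score of at least 50, they were 32.0% kd-only, 9.24% split, 7.95% merged, -0.0742 width, 0.48 rho, -0.56 gene regions and 0.22 promoter share. With lists of equal length, they were 41.4% control-only, 37.7% kd-only, 13.4% split, 8.30% merged and 0.0707 promoter share, and the gene regions reversed to 0.13. With peaks within 500 bp merged, they were 41.0%, 36.6%, 7.16%, 3.73%, -0.0753, 0.53 and 0.0587 for promoter share. With 50% reciprocal overlap, they were 66.5% control-only, 63.4% kd-only, -0.0366 width and 0.62 rho, and this setting gives no split or merged peaks by construction. Without repeat-masked peaks, they were 45.6%, 29.0%, 13.3%, 8.50%, -0.15, 0.61, -0.45 gene regions and 0.31 promoter share. Within 1 kb of the TSS, the gene regions reversed to 0.14. Leaving out chromosomes 8 and X moved none of the 8 values. Summed peaks of the gene lists, tried in alternatives chosen after seeing the data, changed sign near 0 for pluripotency (0.01 to -0.01 with the score limit, -0.07 without repeats and -0.02 without chromosomes 8 and X), neural transcription factors (-0.03 to 0.06 with equal length and 0.01 with merging) and synapse (-0.12 to 0.03 with equal length). They moved for PRC2 with merging (-0.13), adhesion with the score limit (-0.58) and synapse without repeats (-0.36). Of 35 genes looked up with a difference of at least 10 peaks, not all of them named above, 20 moved with the score limit and 3 without repeats. With both lists at equal length, repeat A loci were in a peak in 3.85% in control and 70.3% after kd. The causes of these moves were not tested. No paired analysis was possible because each condition was 1 library, and for the same reason no replicate could be left out. Unknown depth limits every count of missing peaks.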
